A study of Mus musculus with 6 samples.

Results

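The genes described here were 10 genes that mark the mural cells of blood vessels, picked by symbol from the 20254 genes measured in mouse heart. They were 4 contractile genes of smooth muscle (Acta2, Tagln, Myh11 and Cnn1) and 6 genes commonly used to mark pericytes (Pdgfrb, Rgs5, Cspg4, Kcnj8, Abcc9 and Notch3). Each symbol matched 1 Ensembl gene, so all 10 were found, and all 10 passed the filter on low values in the 6 libraries. Hearts of adult C57BL/6 mice had been profiled by RNA sequencing, 3 wild-type (WT) and 3 knockout (KO). The gene knocked out, Trdn-as, is by its name a transcript antisense to Trdn, the gene of triadin, which takes part in calcium release in heart muscle. In each genotype replicates 1 and 2 were from mice 14 months old and replicate 3 was from a mouse 5 months old. The labels give no treatment, do not say how the knockout was made, and state no litter or pairing. Nor do they say whether each library was a separate animal, so the p-values below measure the spread between these libraries.

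Mural cells sit around the endothelial tube: smooth muscle cells wrap arteries and veins and contract to set their width, and pericytes lie along capillaries and share the basement membrane with the endothelium. Contractile genes of smooth muscle are driven by serum response factor (SRF) and its co-activator myocardin, which act through CArG boxes, a DNA element found in many muscle promoters. Pericytes are recruited by PDGF-B from the endothelium through the receptor PDGFR-beta, and Notch3 receives signals from endothelial ligands that keep mural cells mature. None of the 10 genes is exclusive to mural cells in the heart: Abcc9 also encodes the regulatory subunit of the ATP-sensitive potassium channel of ventricular muscle, and Acta2 is switched on in activated fibroblasts.

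The values were a gene-level signal normalized by the authors, quantified from reads with Salmon, and their totals in units of 1e6 were 19.8 to 23.5 per library. Since they were not read counts, the read depth behind a value was unknown. Mitochondrially encoded genes took 40.0 to 49.4% of the signal, and 16735 to 17722 genes were above 0. Cardiomyocyte markers were abundant in every library, as in a heart, with the cardiac myosin heavy chain gene Myh6 between 159960 and 400430. The summed signal of Y-linked genes was 54.9 and 82.2 in replicate 2 of WT and KO and between 2496 and 4482 in the other libraries. Within 14 months the replicate number thus went with this sum. Both libraries at 5 months had a high sum, so the comparison of ages was not balanced for it. Trdn read 5702, 5600 and 9104 in WT against 3429, 3460 and 5606 in KO; the antisense transcript itself was not analysed here, so its loss in the KO libraries was not checked. In bulk tissue, fewer cells of a type and less RNA per cell cannot be told apart, and this holds for every difference below.

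All 10 genes were found in every library. Per kilobase of exon and averaged over the 6 libraries, the order of levels was Rgs5 at 2197 ± 338 (SD, n = 6), Acta2 at 1112 ± 427, Abcc9 at 739 ± 184, Tagln at 484 ± 151, Kcnj8 at 164 ± 35.2, Pdgfrb at 148 ± 46.8, Myh11 at 139 ± 36.4, Notch3 at 78.5 ± 26.7, Cspg4 at 33.0 ± 7.32 and Cnn1 at 31.9 ± 11.0. Only the steps from Rgs5 to Acta2 and from Tagln to Kcnj8 left a gap between the ranges of neighbours. Neighbouring genes overlapped in range at every other step of the order. Acta2 was above Abcc9 in 4 of 6 libraries, Kcnj8 above Pdgfrb in 2, Pdgfrb above Myh11 in 3 and Cspg4 above Cnn1 in 3. Rgs5, a regulator that shortens signalling through G protein-coupled receptors, was thus the most abundant of the 10 per unit of length.

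**Figure D1:**
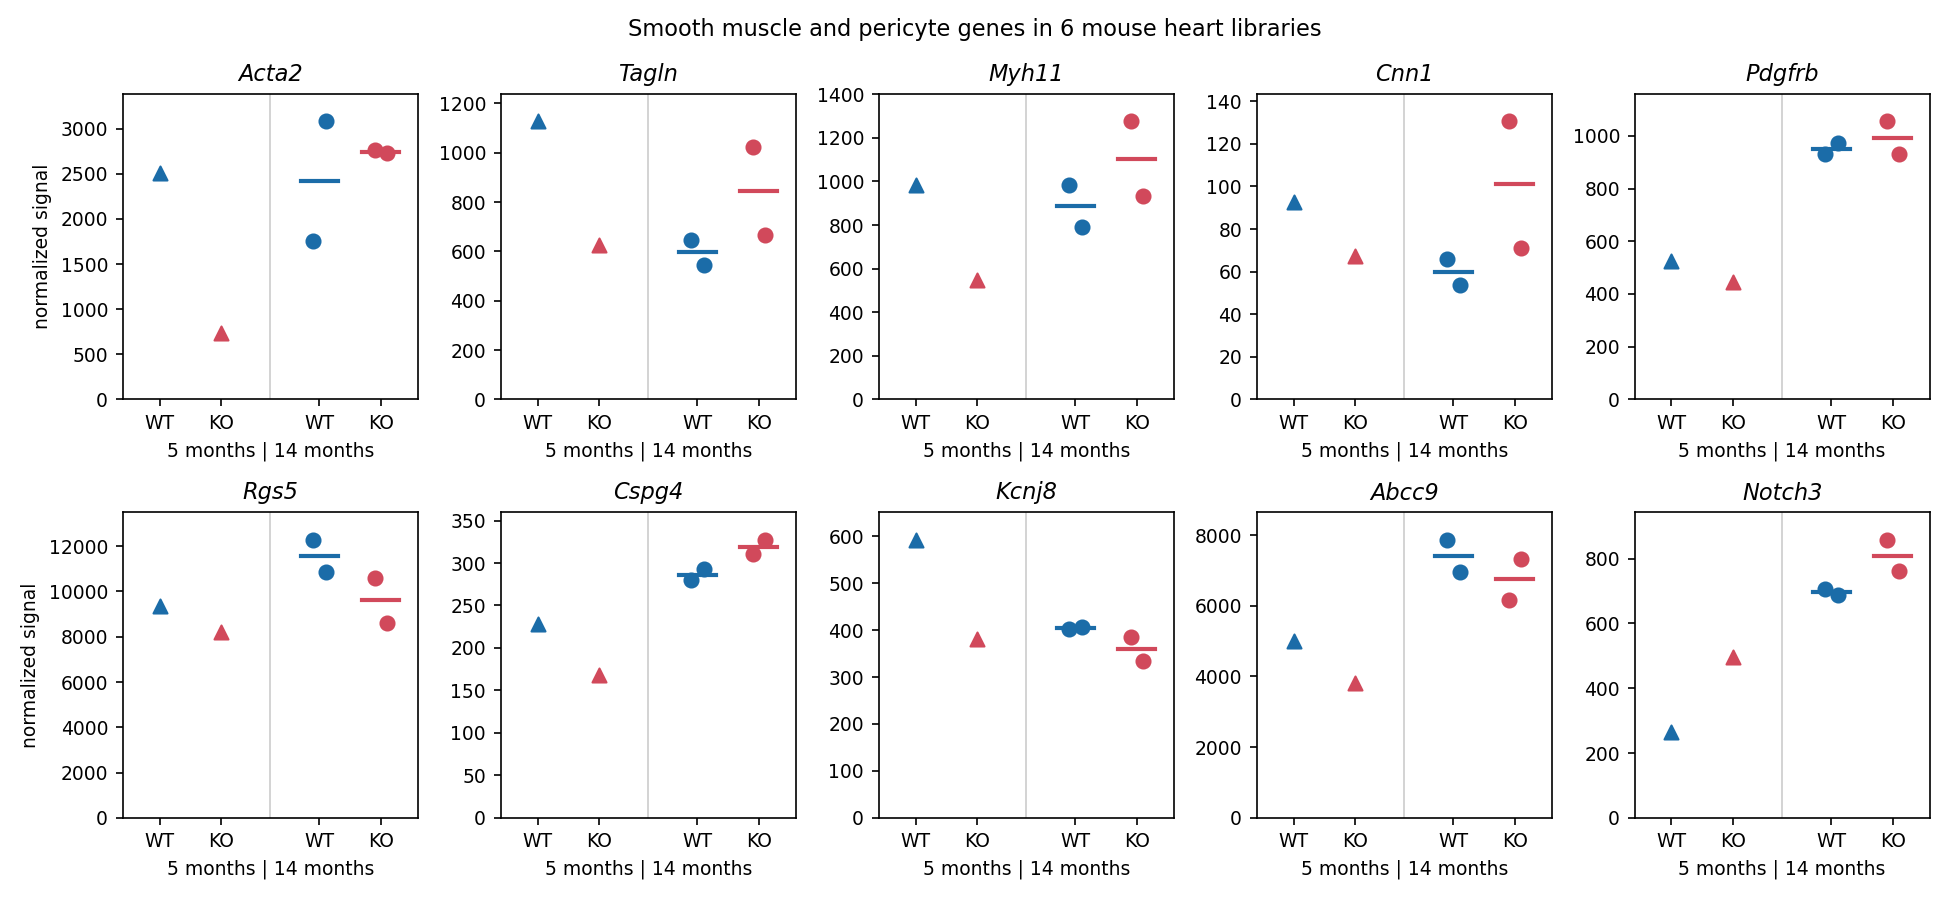
Normalized signal of each of the 10 genes, with a linear axis from 0 for each gene; triangles are the single libraries at 5 months, circles the libraries at 14 months and bars their means, in blue for WT and red for KO. The KO library at 5 months is the lowest of 6 for Acta2 (739), Myh11 (548), Pdgfrb (447), Rgs5 (8230), Cspg4 (168) and Abcc9 (3812). Both libraries at 5 months lie under all 4 at 14 months for Pdgfrb, Cspg4, Abcc9 and Notch3.

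Acta2 encodes smooth muscle alpha-actin, the actin of the contractile filaments, and lies on the minus strand of chromosome 19 (mm10 34241090 to 34255590). It read 1751, 3082 and 2512 in WT replicates 1 to 3 against 2762, 2728 and 739 in KO replicates 1 to 3. The library of the KO at 5 months was far below the other 5, and the highest library was 4.17 times the lowest, while the KO and WT libraries at 14 months overlapped. Tagln encodes transgelin (SM22-alpha), an actin-binding protein of smooth muscle, on the minus strand of chromosome 9 (45929619 to 45936058). Its signal was 647, 545 and 1127 in WT against 1024, 666 and 627 in KO. WT was highest at 5 months, and both KO libraries at 14 months were above both WT libraries of that age, 1 of them only narrowly. Myh11, the smooth muscle myosin heavy chain on the minus strand of chromosome 16 (14194535 to 14291372), read 983, 792 and 982 in WT against 1276, 934 and 548 in KO. Cnn1, the actin-binding protein calponin 1 on the plus strand of chromosome 9 (22099216 to 22109630), read 65.9, 53.9 and 92.9 in WT against 131, 71.3 and 67.5 in KO. In both genes KO replicate 1 was the highest library of the 6.

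Promoters are shown for 2 of the contractile genes because these genes shared a pattern of genotype and age, described below. RefSeq promoter sequences (GRCm38.p6, 250 bases before to 50 after the start) were matched and used for 7 of the 10 genes. Tagln, Myh11 and Pdgfrb were not covered. The CArG box was searched on both strands in its relaxed form, CC, then 6 bases of A or T with at most 1 G or C, then GG; this form was present in 9.98% of 32851 promoters, and the strict form, with A or T at all 6 positions, in 1.63%. Acta2 held 2 relaxed boxes, capitalised below, beginning 84 and 34 bases before the RefSeq start. The Cnn1 window held none, nor did those of the other 5 matched genes, and no strict box was found in any of the 7. Both sequences run 5′ to 3′ on the strand of the gene.
Acta2 (chr19:34255324-34255623, minus strand): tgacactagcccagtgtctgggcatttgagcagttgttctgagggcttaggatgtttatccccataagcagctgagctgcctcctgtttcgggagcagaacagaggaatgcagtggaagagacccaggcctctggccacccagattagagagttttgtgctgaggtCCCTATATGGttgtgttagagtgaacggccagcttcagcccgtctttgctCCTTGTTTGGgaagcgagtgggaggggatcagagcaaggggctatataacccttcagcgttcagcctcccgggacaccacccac
Cnn1 (chr9:22099003-22099302, plus strand): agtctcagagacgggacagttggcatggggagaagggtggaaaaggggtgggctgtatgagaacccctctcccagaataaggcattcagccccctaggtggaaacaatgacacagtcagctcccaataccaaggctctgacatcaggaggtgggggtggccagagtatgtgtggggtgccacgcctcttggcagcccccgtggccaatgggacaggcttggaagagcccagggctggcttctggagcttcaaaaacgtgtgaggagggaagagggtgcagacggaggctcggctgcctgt
A match in these windows is a description of the letters, not a binding site, and the absence of a match covers only the 300 bases searched.

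Among the pericyte genes, Pdgfrb encodes the receptor for PDGF-B and lies on the plus strand of chromosome 18 (61045150 to 61085061). Its signal was 931, 972 and 524 in WT against 1056, 931 and 447 in KO. The 2 libraries at 5 months were far below the 4 at 14 months, and genotypes overlapped at 14 months. Cspg4, the NG2 proteoglycan of the pericyte surface on the plus strand of chromosome 9 (56865033 to 56899870), read 280, 293 and 228 in WT against 311, 327 and 168 in KO. Rgs5 on the plus strand of chromosome 1 (169655501 to 169695813) read 12284, 10847 and 9347 in WT against 10611, 8620 and 8230 in KO. Within each replicate number the KO library was the lower of the 2, although the genotypes overlapped over all libraries.

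Kcnj8 and Abcc9 encode the pore (Kir6.1) and the regulatory subunit (SUR2) of the ATP-sensitive potassium channel of vascular cells, and lie 16.2 kb apart on the minus strand of chromosome 6 (142564837 to 142571614 and 142587862 to 142702315). Kcnj8 read 403, 406 and 592 in WT against 385, 334 and 382 in KO. All 3 KO libraries were below all 3 WT libraries, and WT at 5 months was the highest. Abcc9 read 7868, 6968 and 4995 in WT against 6161, 7338 and 3812 in KO, so both libraries at 5 months were below all at 14 months. Notch3, the Notch receptor of mural cells on the minus strand of chromosome 17 (32120820 to 32166852), read 707, 687 and 265 in WT against 858, 760 and 498 in KO. WT at 5 months was the lowest library, and each KO library was above the WT library of the same number.

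Age was compared with a limma fit on log2(signal + 1) across 13823 genes with genotype as a covariate, and p-values were adjusted by Benjamini-Hochberg over all of them, with a threshold of 0.05. Pdgfrb, Cspg4, Abcc9 and Notch3 were lower at 5 than at 14 months, and none of the contractile genes passed the test. Of the 10 genes, 4 passed the threshold, all 4 of them lower at 5 months, against 33.7% of all genes tested in either direction and 17.7% in the lower direction. The same 4 genes had both libraries at 5 months below all 4 at 14 months, a pattern held by 25.7% of all genes. None was called higher, against 16.0% of all genes. The 4 of 10 is near the share called in either direction over all genes, and whether it exceeds the share called lower was not tested. Only 2 libraries stood for 5 months, 1 of each genotype.

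The signal of Notch3 was 2.06 times as high at 14 months as at 5 (95% interval 1.57 to 2.71; log2 difference of 5 minus 14 months −1.04, SE 0.17, limma adjusted p = 0.0034). Pdgfrb was 2.0 times as high at 14 months (1.63 to 2.46; log2 difference −1.0, SE 0.13, limma adjusted p = 0.00133). For Abcc9 the fold was 1.62 (1.30 to 2.01; log2 difference −0.69, SE 0.14, limma adjusted p = 0.00681). For Cspg4 it was 1.54 (1.17 to 2.02; log2 difference −0.62, SE 0.17, limma adjusted p = 0.0257). The call on Cspg4 was lost without any one of 4 libraries: WT replicate 2 (log2 difference −0.65, limma adjusted p = 0.0508), KO replicate 1 (−0.60, 0.0673), KO replicate 2 (−0.56, 0.0749) or KO replicate 3 (−0.32, 0.150). The difference itself stayed close to its full value except without KO replicate 3. It was also lost when a trend with gene length was removed (log2 difference −0.40, limma adjusted p = 0.157). The calls on Pdgfrb, Abcc9 and Notch3 held in each of these.

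The other 6 genes did not pass the test by age. Rgs5 had a log2 difference of 5 minus 14 months of −0.26 (SE 0.14, limma adjusted p = 0.175), and passed under 2 other scalings of the libraries given in the closing section. Kcnj8 had a log2 difference of 0.32 (SE 0.15, limma adjusted p = 0.140), with 95% limits of −0.03 and 0.67. Among the contractile genes the log2 differences were −0.89 for Acta2 (SE 0.47), 0.26 for Tagln (SE 0.30), −0.42 for Myh11 (SE 0.26) and 0.06 for Cnn1 (SE 0.34). Their limma adjusted p-values were 0.195, 0.524, 0.243 and 0.906. The median log2 difference was −0.18 over the 4 contractile genes and −0.66 over the 6 pericyte genes, against −0.02 over all genes tested. With the single libraries at 5 months left out in turn, these calls went in opposite directions. In such a fit 5 months is 1 library, assumed to vary like the others, so its p-value rests on the spread of the remaining libraries. Without WT replicate 3, so that 5 months was KO alone, the contractile median was −0.75 and Acta2 (−1.89, limma adjusted p = 0.0146) and Myh11 (−0.99, 0.0169) passed as lower. Without KO replicate 3 the median was 0.39, and Tagln (0.92, limma adjusted p = 0.0381) and Kcnj8 (0.55, 0.0311) passed as higher. Acta2 also passed without WT replicate 1 (−1.21, limma adjusted p = 0.0376).

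**Figure D2:**
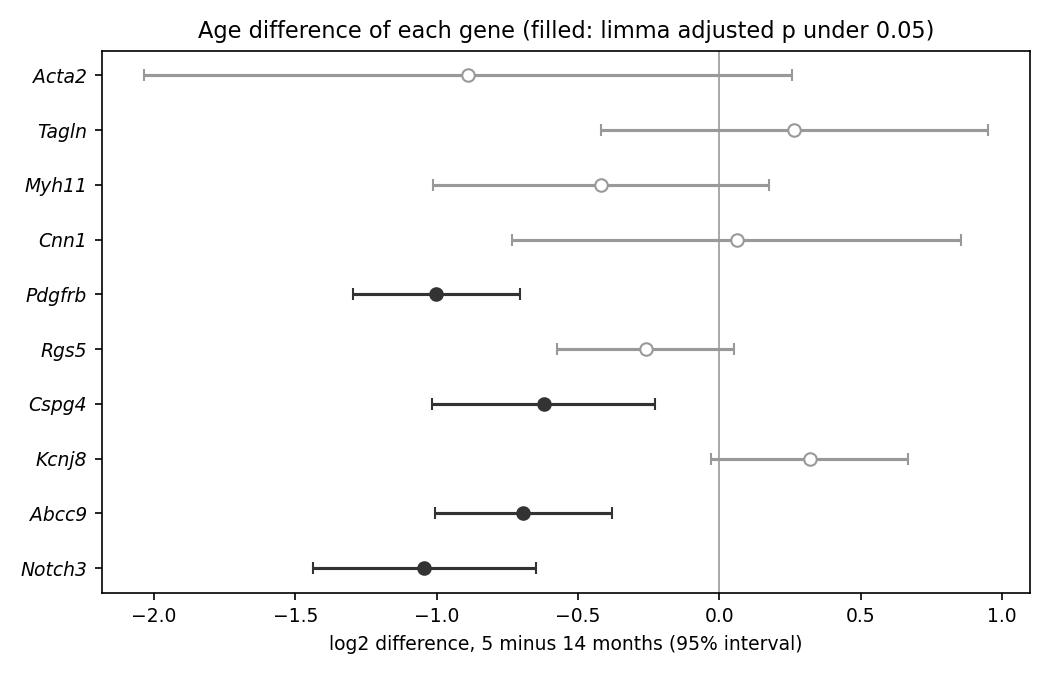
log2 difference of 5 minus 14 months for each of the 10 genes from the limma fit with genotype as covariate, with 95% intervals; filled points have an adjusted p under 0.05. Pdgfrb, Cspg4, Abcc9 and Notch3 lie wholly below 0, and the intervals of the contractile genes all span 0.

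Long and short genes differed by age in these libraries. The median log2 difference of 5 minus 14 months was 0.36 over 3149 tested genes with under 2 kb of exon, −0.04 over 5196 genes of 2 to 4 kb and −0.19 over 5434 genes of 4 kb or more. Of the 6 members in the longest class, Pdgfrb, Cspg4, Abcc9 and Notch3 were called by age and Rgs5 and Myh11 were not. Acta2, Tagln, Cnn1 and Kcnj8 are under 4 kb, and none was called. With the length trend removed, the adjusted p-values of Pdgfrb, Abcc9 and Notch3 stayed under 0.05. Signal of mitochondrially encoded genes also differed by age, at 44.3 to 49.4% of each library at 14 months and 40.0 and 41.6% at 5 months. Scaling to totals without those genes moved the median of all genes from −0.02 to −0.22 and changed the split of genes called by age from 2216 higher and 2447 lower to 1233 higher and 3403 lower.

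The potassium channel genes were also set against each other within each library. Per kilobase, Kcnj8 was 16.8, 19.2 and 39.0% of Abcc9 in WT replicates 1 to 3 against 20.6, 15.0 and 32.9% in KO replicates 1 to 3. Both libraries at 5 months were above all 4 at 14 months, with a log2 difference of 1.01. A 2-sided exact permutation test over libraries gave p = 0.133, the smallest value that 2 libraries against 4 allow. Kcnj11, the pore (Kir6.2) that pairs with SUR2 in heart muscle, was lower at 5 months (1918, 1654 and 1270 in WT, 1982, 2016 and 1286 in KO; log2 difference −0.56, SE 0.12, limma adjusted p = 0.00943). As a share of Abcc9 per kilobase it was 65.0, 63.2 and 67.7% in WT against 85.7, 73.2 and 89.9% in KO. This share did not separate by age. Every KO library was above every WT library, and this difference by genotype was not tested. Abcc8, the alternative regulatory subunit (SUR1), was lower at 5 months too (log2 difference −0.58, limma adjusted p = 0.00935). Both listed partners of the channel were thus called lower. Over all genes tested 17.7% were called lower and 33.7% in either direction, and these 2 genes were not tested against those shares.

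The comparison of KO with WT asked whether loss of Trdn-as went with a change in these genes, with age as a covariate. None of the 10 genes passed the threshold, and neither did any of the 13823 genes tested by limma (0.0%) or by limma-voom. Trdn itself, with a log2 difference of KO minus WT of −0.71 (SE 0.10), was not called (limma adjusted p = 0.261). A gene without a call can therefore still differ. At an unadjusted p under 0.05 there were 841 genes, 6.08% of those tested, and 1 of the 10, Notch3. Notch3 had a log2 difference of KO minus WT of 0.44 (SE 0.16, unadjusted p = 0.0250, limma adjusted p = 0.745), which puts KO at 136% of WT with a 95% interval of 105 to 176%. KO was above WT in each of the 3 replicate numbers, by 0.28, 0.15 and 0.91 on the log2 scale, a pattern held by 12.0% of all genes. Kcnj8 had a log2 difference of −0.33 (SE 0.14, limma adjusted p = 0.745), which is 79.7% of WT. Its complete separation of KO below WT was held by 2.89% of all genes.

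Rgs5 was at 84.6% of WT in KO (95% interval 68.9 to 104%; log2 difference −0.24, SE 0.13, limma adjusted p = 0.745). The differences by replicate number were −0.21, −0.33 and −0.18. KO was below WT in 3 of 3 replicate numbers for Rgs5 and Kcnj8, against 14.6% of all genes. Abcc9 had a log2 difference of −0.22 (SE 0.13, limma adjusted p = 0.745), Pdgfrb of −0.04 (SE 0.12, 0.941) and Cspg4 of −0.04 (SE 0.16, 0.949). The contractile genes had log2 differences of −0.43 for Acta2 (SE 0.44), 0.04 for Tagln (SE 0.28), −0.08 for Myh11 (SE 0.24) and 0.31 for Cnn1 (SE 0.32). Their limma adjusted p-values lay between 0.801 and 0.974, and their intervals were wide: Acta2 reached from −1.51 to 0.65 and Cnn1 from −0.44 to 1.05. In the 14-month libraries alone, 14 genes passed over the whole table and none of them was one of these 10.

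At each age taken alone, the contractile genes had a difference of opposite sign. KO was above WT at 14 months and below WT at 5 months for all 4 and also for Pdgfrb and Cspg4, 6 of the 10 genes in all, while 25.3% of all genes tested had that pattern. At 14 months the log2 difference of KO minus WT was 0.24 for Acta2, 0.48 for Tagln, 0.31 for Myh11 and 0.69 for Cnn1. By replicate number these were 0.66 and −0.18 for Acta2, 0.66 and 0.29 for Tagln, 0.38 and 0.24 for Myh11 and 0.98 and 0.40 for Cnn1. At 5 months, with 1 library of each genotype, Acta2 in KO was 29.4% of its WT value, Tagln 55.6%, Myh11 55.9% and Cnn1 72.6%. Both KO libraries at 14 months were above both WT libraries for Tagln, Cnn1, Cspg4 and Notch3 (17.2% of all genes) and below both for Rgs5 and Kcnj8 (17.9% of all genes). The median over the 4 contractile genes was 0.39 at 14 months and −0.84 at 5 months, against −0.00 and −0.06 over all genes.

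The interaction of genotype and age, which tests this change of the difference from 14 to 5 months, rests on 2 residual degrees of freedom and on 1 library per genotype at 5 months. None of the 10 genes passed the threshold, against 2.08% of all genes (287). At an unadjusted p under 0.05 there were 5 of 10, Acta2, Tagln, Myh11, Cspg4 and Notch3, against 23.2% of all genes. The interaction was −2.0 on the log2 scale for Acta2 (SE 0.47, 95% interval −3.24 to −0.77, limma adjusted p = 0.105). For Tagln it was −1.32 (SE 0.37, limma adjusted p = 0.111), for Myh11 −1.15 (SE 0.31, 0.104) and for Cnn1 −1.14 (SE 0.55, 0.266). An interaction of −1 or lower was held by all 4 contractile genes and by 6.16% of all genes tested. That line lies just above the values of Myh11 and Cnn1, so the count depends on where it was drawn. With totals without mitochondrial genes, Myh11 and Cnn1 were both at −0.87. All 4 values rest on the same single pair of libraries at 5 months. Leaving out single libraries moved the calls: Acta2 passed without WT replicate 2 (−2.41, limma adjusted p = 0.0168) and Tagln without KO replicate 2 (−1.63, limma adjusted p = 0.0359).

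Of the pericyte genes, Notch3 stood on the other side, with an interaction of 0.69 (SE 0.20, limma adjusted p = 0.104). Its drop from 14 to 5 months was −1.39 on the log2 scale in WT and −0.70 in KO. For Cspg4 the interaction was −0.59 (limma adjusted p = 0.177), and the difference of 5 minus 14 months was −0.33 in WT and −0.92 in KO. In Pdgfrb the same difference was −0.86 in WT and −1.15 in KO on the log2 scale, with an interaction of −0.29 (95% interval −0.74 to 0.16). Rgs5 had an interaction of 0.09 (95% interval −0.40 to 0.57), Kcnj8 of −0.46 (−0.97 to 0.05) and Abcc9 of −0.25 (−0.70 to 0.20). The median of the 6 pericyte genes was −0.27, against −1.23 for the contractile genes and −0.05 for all genes.

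**Figure D3:**
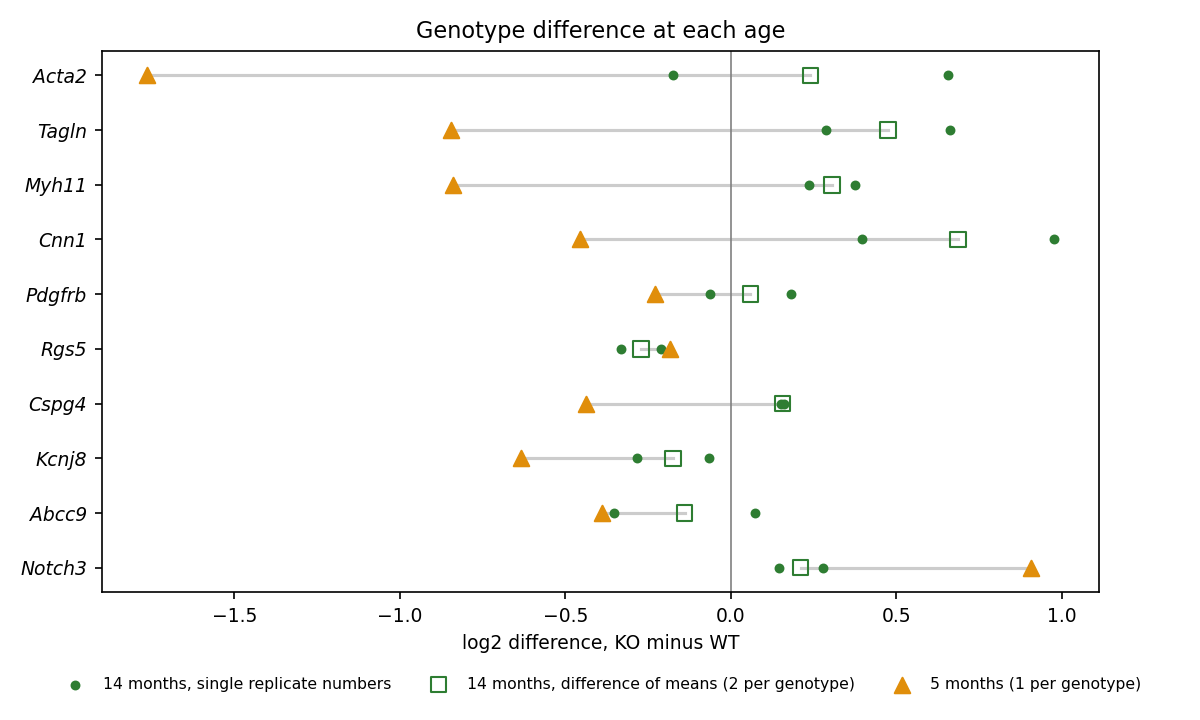
log2 difference of KO minus WT for each of the 10 genes, with squares for the means at 14 months, small circles for the single replicate numbers at 14 months, and triangles for the single pair of libraries at 5 months. The triangles of Acta2 (−1.76), Tagln, Myh11 and Cnn1 lie left of 0 and their squares right of it, and the triangle of Notch3 (0.91) lies farthest to the right.

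Several other measures moved with the KO library at 5 months, and their part in the contractile pattern was not tested. Actc1, the cardiac actin gene, read 121170, 132700 and 123200 in WT against 133160, 133210 and 42240 in KO, with an interaction of −1.62 (SE 0.14, limma adjusted p = 0.0109). Per kilobase Acta2 was 1.05, 1.68 and 1.48% of Actc1 in WT against 1.5, 1.48 and 1.27% in KO. This share spanned 1.61-fold over the libraries where Acta2 alone spanned 4.17-fold. No 31-base word of the Acta2 transcripts was shared with Actc1, and 1.39% were shared with any other gene. Actb, the cytoskeletal beta-actin, was at a log2 difference of KO minus WT of −1.10 at 5 months and 0.20 at 14 months. Acta1, another actin gene, was not lower in KO at 5 months (log2 difference 0.10). It read 1103, 4894 and 1407 in WT against 2422, 1134 and 1508 in KO. The share of Acta1 in Actc1 per kilobase spanned 4.33-fold over the libraries. The median log2 difference at 5 months was −0.34 over genes with under 2 kb of exon, −0.08 over those of 2 to 4 kb and 0.14 over those of 4 kb or more. With the length trend removed the contractile interaction had a median of −1.20.

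The markers of other cell types behaved unequally. Adipocyte markers had the same pattern of signs as the contractile genes in 8 of 8 tested, against 25.3% of all genes. Their medians were 1.55 at 14 months and −1.07 at 5 months. Their summed signal was 1099, 1198 and 1972 in WT against 2905, 4165 and 969 in KO. Interactions were called for Car3, Cfd and Cidea. Over all genes 2.08% had an interaction called, and none of the lists in this paragraph was tested against that share. Fibroblast markers had medians of −0.12 at 14 months and −0.60 at 5 months, with interactions called for Col3a1 and Gsn. They were lower in KO at 5 months in 11 of 11, as were 7484 of 13823 genes tested. Their summed signal was 38311, 41586 and 34941 in WT against 40492, 36661 and 19733 in KO. Cardiomyocyte markers had medians of −0.05 and −0.75, with interactions called for Actc1 and Myh6. Erythroid markers had medians of −0.61 and −2.18, but at 14 months the medians by replicate number were opposite, at −2.82 and 1.52. The erythroid sum was 66820, 6782 and 13770 in WT against 10250, 19386 and 2727 in KO. Atrial markers had medians of −0.19 and −0.70, and macrophage markers −0.06 and −0.50. Mesothelial markers went the other way, at −0.08 and 1.08, with an interaction above 0 in 5 of 6 and none called. Over all genes tested 6440 of 13823 interactions were above 0. The mesothelial sum was low, at 399, 570 and 109 in WT against 291, 409 and 164 in KO. The summed signal of the 4 contractile genes, for comparison, was 3447, 4472 and 4714 in WT against 5192, 4399 and 1982 in KO.

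Markers of the endothelium, which mural cells surround, had medians of −0.08 at 14 months and −0.15 at 5 months. By age 8 of 14 were called lower at 5 months and 1 higher, among them Eng (log2 difference −1.28) and Cdh5, and their summed signal was 26008, 25175 and 17440 in WT against 27145, 21528 and 15202 in KO. The sum of the 6 pericyte genes was also lower at 5 months, at 22473, 20174 and 15952 in WT against 19382, 18312 and 13537 in KO. Fibroblast markers were called lower in 5 of 11 and higher in 2, macrophage markers lower in 3 of 9, and mesothelial markers lower in 4 of 6. Over all genes 17.7% were called lower, 16.0% higher and 33.7% in either direction, and none of these lists was tested against those shares. Cardiomyocyte markers went the other way, with 5 of 10 called higher at 5 months and 1 lower, and so did atrial markers, with 5 of 6 higher and none lower. The part of any of these cell types in the age differences of the pericyte genes was not tested.

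**Figure D4:**
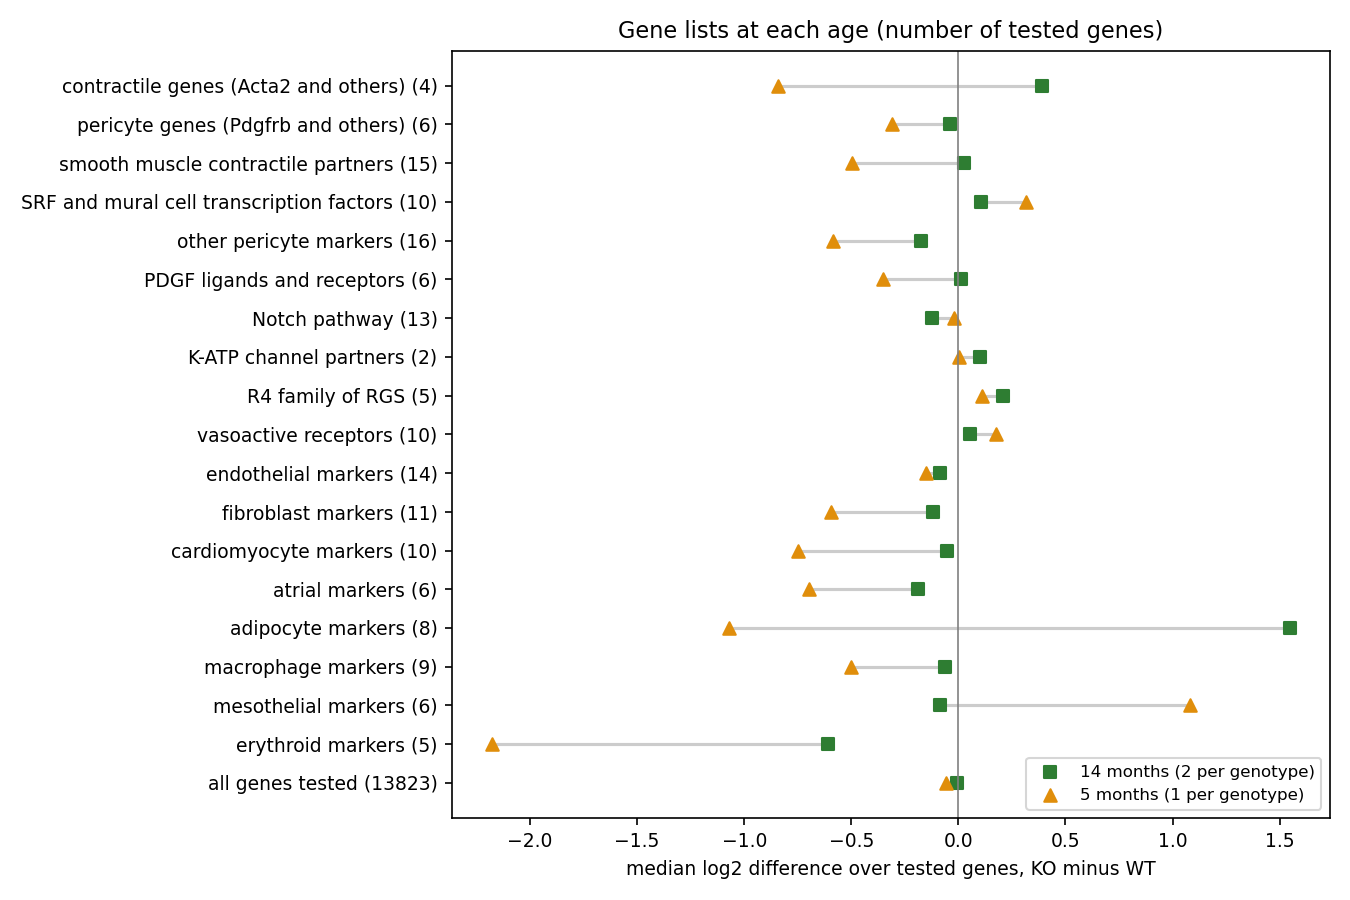
Median log2 difference of KO minus WT at 14 months and at 5 months for the contractile and pericyte genes, for the lists of their partners and for marker lists of other cell types. The contractile genes run from 0.39 to −0.84 and the adipocyte markers from 1.55 to −1.07, while the mesothelial markers run from −0.08 to 1.08. The endothelial markers stay near −0.08 and −0.15.

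Partners of the contractile genes were taken from a list of 15 further genes of the smooth muscle contractile apparatus, all tested. By age 5 were called lower at 5 months and 2 higher, with a median of −0.50. For these and the following lists the shares over all genes tested were 17.7% lower, 16.0% higher and 33.7% in either direction, and the lists were not tested against them. Mylk, the kinase that switches on smooth muscle myosin, was at 750, 746 and 468 in WT against 758, 715 and 394 in KO (log2 difference −0.79, SE 0.12, limma adjusted p = 0.00259). Cald1 (caldesmon, log2 difference −0.84) and Ppp1r12b (a myosin phosphatase subunit, −0.88) also fell. Myl6, a myosin light chain made in most cells and the most abundant of the list per kilobase, was higher at 5 months (log2 difference 0.80). None of the 15 was called in KO against WT or in the interaction. The interaction had a median of −0.48, with 11 of 15 below 0, as were 7383 of 13823 genes tested. KO was above WT at 14 months and below at 5 months in 6 of the 15, against 25.3% of all genes.

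Of the transcription factors of the SRF axis and of mural cells, 7 of 10 were called lower at 5 months and all 10 had a difference below 0, with a median of −0.66 (17.7% of all genes called lower, and 7121 of 13823 below 0). Klf4, a repressor of the contractile programme, read 1315, 897 and 544 in WT against 1163, 1293 and 395 in KO, a log2 difference of −1.31 (SE 0.20, limma adjusted p = 0.00253). Ebf1 (−0.98), Gata6 (−0.84) and the SRF co-activator Mrtfb (−0.57) fell as well. SRF itself, the most abundant of the list per kilobase, fell from 1282, 870 and 1413, 1503 at 14 months to 755 and 787 at 5 months (log2 difference −0.69, SE 0.18, limma adjusted p = 0.0207). None of the 10 was called by genotype or in the interaction. Their median difference of KO minus WT was 0.11 at 14 months and 0.31 at 5 months, where the contractile genes had a median of −0.84. Myocd, the gene of myocardin, singled out after its values were seen, read 980, 948 and 286 in WT against 709, 980 and 631 in KO. Its WT library at 5 months was the lowest, and its interaction of 1.35 did not pass the threshold (SE 0.28, limma adjusted p = 0.0607). In bulk heart the cell type behind the signal of these factors is not known. Their part in the contractile pattern was not tested.

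Further pericyte markers did not move as 1 group. Of 16 tested, 7 were called lower at 5 months (17.7% of all genes) and 2 higher (16.0%), with a median of −0.05. Mcam, an adhesion molecule of mural and endothelial cells, fell (log2 difference −1.10, SE 0.22), and so did Ndufa4l2 (−0.88, SE 0.18). Higd1b, a mitochondrial protein enriched in pericytes, was higher at 5 months: it read 40.4, 58.4 and 199 in WT against 36.7, 34.2 and 97.1 in KO (log2 difference 1.72, SE 0.26, limma adjusted p = 0.00259). Art3 was higher too (log2 difference 1.09, SE 0.14). In KO against WT 12 of the 16 were below 0, as were 7455 of 13823 genes tested, with a median of −0.29 and none called. In the interaction Anpep, an aminopeptidase, was called lower, at 238, 333 and 168 in WT against 258, 251 and 37.6 in KO (−1.98, SE 0.34, limma adjusted p = 0.042). The KO library at 5 months was the one that stood apart.

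The ligands of the mural receptors were also listed. Pdgfb, which encodes the endothelial ligand of PDGFR-beta, read 829, 764 and 384 in WT against 819, 689 and 402 in KO. It was lower at 5 months by nearly the same amount as Pdgfrb (log2 difference −0.97, SE 0.13, limma adjusted p = 0.00156) and was the only one called of 6 other PDGF ligands and receptors. In the Notch pathway 5 of 13 were called lower at 5 months and none higher, near the 33.7% of all genes called in either direction, including the ligand Dll4 (−0.69) and the targets Heyl (−0.75) and Nrarp (−0.66), beside the receptor Notch2 (−0.75). Hes1, the most abundant of that list per kilobase, had a log2 difference of −0.23 (limma adjusted p = 0.530). Of the R4 family of RGS proteins, to which Rgs5 belongs, 5 further members were tested and none was called; Rgs2, the most abundant, had a log2 difference by age of −0.49 (SE 0.27). Among 10 receptors for vasoactive signals 3 were called lower at 5 months, also near that share: Adra1b (−0.78), Agtr1a (−0.47) and Ednra (−0.53). KO against WT gave no call in any of these lists.

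Genes whose profile over the 6 libraries was most like a member's were sought among tested genes with a mean of at least 100. These numbered 9839, and those on the lists were left out of the search. Likeness was the root mean square (RMS) difference of the log2 values, each gene centred on its own mean. For Myh11 the closest were Slc5a6 (RMS 0.123), Eepd1 (0.128) and 4930523C07Rik (0.129). All of them lay closer to Myh11 than any other member did: Cspg4 was nearest at 0.247, and the other contractile genes were at 0.319 (Cnn1), 0.333 (Tagln) and 0.492 (Acta2). For Rgs5 the closest were Numb (0.0682), Rab8a (0.0743) and Sptlc2 (0.0777), and the nearest member was Abcc9 at 0.271. With 6 libraries and this many genes searched, close profiles are to be found for most genes, so these are descriptions only.

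Some reads could have been shared with other transcripts, and the strand setting of the libraries is not given in the sources used here. For Tagln 62.2% of 31-base words lie in transcripts of the opposite strand, mostly the antisense gene Gm48529 (877 exon bases in common, not analysed here) and the end of Pcsk7 (94 bases). Pcsk7 read 262, 260 and 341 in WT against 293, 275 and 406 in KO, with its highest value in the KO library at 5 months, where Tagln was at 627. The share was 5.74% for Notch3, 2.94% for Abcc9 and 0.354% for Rgs5, and no word was shared in this way by the other 6. On the same strand no member shared more than 1.41% of its words with other genes.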

How the data were processed

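RNA sequencing of 6 heart libraries was analysed, 3 WT and 3 KO. Salmon 1.5.2 and mm10 are named in the submitters' processing notes. What the authors deposited is a normalized signal per gene, not counts. Their scaling is not given in the sources used here. Of 20254 genes, 20122 were matched to GENCODE M21 (GRCm38, the build of mm10), and 108 broken lines were left out. limma 3.58.1 in R 4.3.3 was fitted to log2(value + 1) with the trend and robust options, over 13823 genes at 10 or more in at least 3 libraries. The fit of KO against WT held age as covariate and that of 5 against 14 months held genotype (3 residual degrees of freedom each), followed by their interaction. The fit was also run on simulated data with the same spread for every gene. Spread differed between the real genes, so that run does not measure the error rate here. Named were all 10 genes, up to 4 called genes of each other list per comparison by smallest p, the most abundant of each list per kilobase, and 3 genes most like Myh11 and Rgs5. Members and lists were chosen with earlier results of these data known. 1 called gene of the pericyte list is not reported here. Alternatives took in other scalings, filters, pseudocounts, limma-voom, a length correction added after seeing the data, and each library left out.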

Additional observations from a re-analysis of the deposited data

How the results depend on the processing

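The age calls on Pdgfrb, Abcc9 and Notch3 held under every alternative run, with limma adjusted p-values of 0.000819 to 0.0112, 0.000773 to 0.0373 and 0.000712 to 0.0190. Rgs5 passed by age under quantile scaling (log2 difference −0.57, limma adjusted p = 0.0169) and with totals without mitochondrial genes (−0.46, 0.0378). Cspg4 also missed the threshold without the trend and robust options (limma adjusted p = 0.0508). Genes called by age numbered 3246 to 4533 with a library left out.

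Interaction calls were unstable. From 287 they became 4 with no filter, 12 with quantile scaling, 750 with totals without mitochondrial genes, 5 with voom, 103 with the length trend removed, 7 without the trend and robust options, and 13 to 234 with a library left out. Of the 10 genes, 1 passed with totals without mitochondrial genes (Notch3, 0.97, limma adjusted p = 0.0435), and 0 to 1 with a library left out. That scaling moved the median of all interactions from −0.05 to 0.22 and their split from 122 higher and 165 lower to 635 and 115. The contractile median was −0.96 with it, and −1.60 to −0.97 with a library left out. The pericyte median was −0.13 with quantile scaling, 0.0029 with totals without mitochondrial genes, −0.38 with the length trend removed, and −0.30 to −0.24 with a library left out. Abcc9 changed sign to 7.5e-05 with quantile scaling and 0.022 without mitochondrial genes in the totals, and Rgs5 lay between −0.0621 and 0.24 with a library left out.

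KO against WT gave 14 calls in the 14-month libraries alone and 0 to 5 with a library left out. In the 14-month libraries alone the log2 differences were 0.24 for Acta2, 0.31 for Myh11, 0.0597 for Pdgfrb and 0.16 for Cspg4, and with totals without mitochondrial genes 0.0304 for Myh11, 0.0692 for Pdgfrb and 0.0641 for Cspg4. With a library left out the ranges were −0.85 to 0.24 for Acta2, −0.27 to 0.48 for Tagln, −0.31 to 0.31 for Myh11, −0.0497 to 0.69 for Cnn1, −0.12 to 0.0597 for Pdgfrb and −0.12 to 0.16 for Cspg4. By age they were −1.89 to 0.11 for Acta2, −0.40 to 0.92 for Tagln, −0.99 to 0.15 for Myh11 and −0.51 to 0.63 for Cnn1, which was −0.14 with totals without mitochondrial genes. The cause was not tested.

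After removal of each gene's genotype mean over both ages, same-number libraries correlated at 0.39, 0.383 and 0.617. Cross pairs at 14 months did so at 0.382 and 0.369. With the genotype mean taken within 14 months, replicate 1 of WT and of KO correlated at 0.0147. The numbers share an age and, within 14 months, the level of Y-linked genes, and the labels state no pairing. A replicate block gave 0 genes called, 583 at an unadjusted p under 0.05, and a contractile median of −0.02; it changed no call. Age could not be fitted with the block, nor the interaction without a 5-month library. With 2 libraries at 5 months, every age result rests on 1 library of each genotype.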
